A study of Homo sapiens with 12 samples.

Results

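The genes examined here were those of the MHC class II pathway of antigen presentation together with their transcriptional coactivator. They were listed by name, and comprise the chain genes HLA-DRA, HLA-DRB1, HLA-DPA1 and HLA-DPB1, the peptide-exchange genes HLA-DMA and HLA-DMB, the invariant chain gene CD74 and CIITA, 8 of the 38021 gene names in the count table. RNA was sequenced from 786O cells, a clear cell renal cell carcinoma line that lacks functional VHL, and from WT8 cells, which are 786O cells that express wildtype VHL. Both lines were infected with a PLKO.1 lentivirus that carried an shRNA of scrambled sequence (shControl) or one that targets BMAL1 (shBMAL1), selected in puromycin, and cultured in DMEM with fetal bovine serum. The 4 groups, 786O shControl, 786O shBMAL1, WT8 shControl and WT8 shBMAL1, had 3 libraries each, which the labels call biological replicates. All 12 libraries therefore carry a lentiviral shRNA, and no library is of uninfected cells. WT8 is a derivative line, so VHL and any other difference between the lines cannot be told apart. The labels do not say which BMAL1 hairpin was used.

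MHC class II molecules are pairs of an alpha and a beta chain that carry peptides from endosomes to the surface, where CD4+ T cells read them. The invariant chain CD74 holds the new pair and fills its groove until endosomal proteases cut it down to a short fragment, and HLA-DM, a pair of HLA-DMA and HLA-DMB, then exchanges that fragment for other peptides. CIITA binds no DNA itself. It is recruited by RFX, CREB and NF-Y factors that sit on the X and Y boxes in front of these genes. Dendritic cells, macrophages and B cells make class II constantly, whereas epithelial cells, those of the kidney tubule among them, make it mainly after interferon-gamma has induced CIITA.

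Library totals ran from 33182005 to 36477484 counts, so that 3 counts, the floor used here for a gene that was not detected, equal 0.0822 to 0.0904 CPM (counts rescaled by TMM so that libraries of unequal size compare). The labels were checked by their targets. BMAL1, listed as ARNTL, had 12.1 ± 1.37 CPM (SD, n = 3) in 786O shControl and 3.94 ± 0.22 CPM in 786O shBMAL1, and 9.24 ± 0.967 against 1.66 ± 0.236 CPM in WT8. VHL had 18.8 ± 1.58 CPM in 786O shControl and 980.7 ± 56.5 CPM in WT8 shControl, and it was 646.9 ± 15.1 CPM in WT8 shBMAL1. In WT8, then, the VHL level itself moved with shBMAL1, and its part in the results below was not tested. The renal marker PAX8, a transcription factor of the kidney epithelium, was present in every group, at mean levels of 313.1 to 1335 CPM. It is 1 of 12 listed markers of renal epithelial carcinoma cells and was picked with its values seen. Of the 12, 1 in each 786O group, 3 in WT8 shControl and 2 in WT8 shBMAL1 had at most 3 counts in every library of the group.

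The 8 genes split into chains at or near the floor and accessory genes that were detected. The 4 chain genes together had 18 to 27 counts per library in 786O shControl and 13 to 27 in WT8 shControl, and with shBMAL1 they had 2 to 6 in 786O and 0 to 5 in WT8. All 8 genes together had 485 to 548 and 1613 to 1963 counts with shControl and 316 to 355 and 895 to 1043 with shBMAL1 in the same order of lines. CD74 took the largest share, from 48.0% to 58.9% of the counts of the 8 genes in 786O shBMAL1 up to 83.9% to 84.9% in WT8 shBMAL1.

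**Figure D1:**
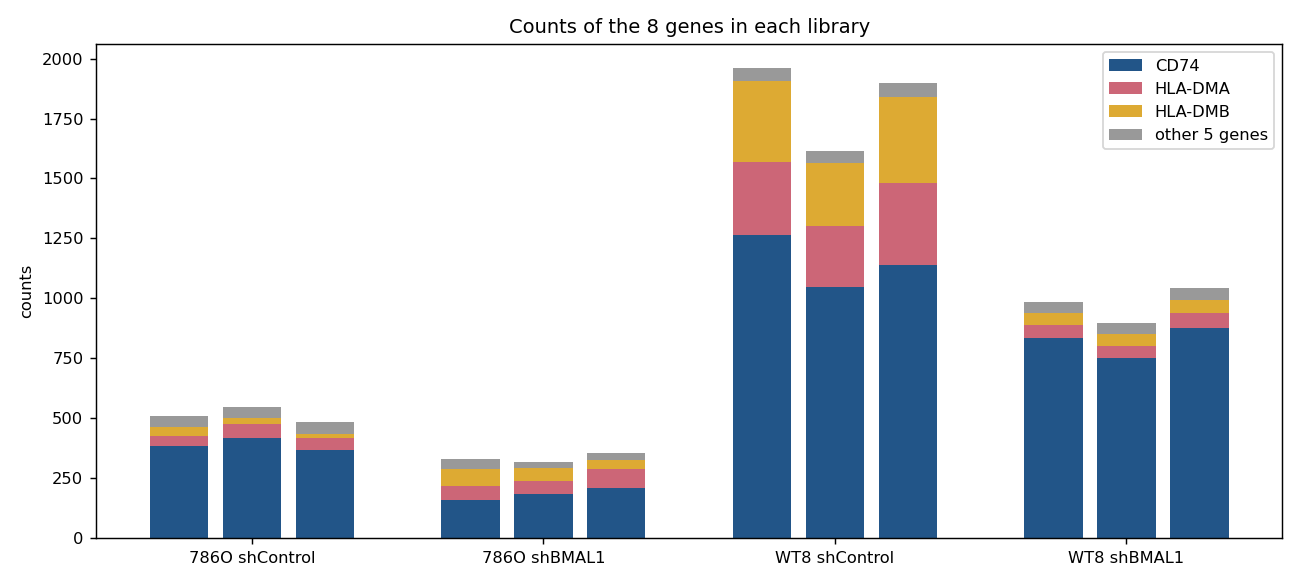
Counts (y axis) of the 8 genes in each of the 12 libraries (bars, 3 per group), divided into CD74, HLA-DMA, HLA-DMB and the other 5 genes. The WT8 shControl bars reach 1613 to 1963 counts and hold the largest HLA-DMA and HLA-DMB segments, while CD74 is the largest segment in every bar.

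The filter on low counts kept 16838 genes and 6 of the 8 members. HLA-DRA and HLA-DRB1 were removed by it. HLA-DPA1 and HLA-DPB1 reached 10 counts in 3 libraries each, all of 1 group, so they passed only through the group where they were highest, and their changes from that group are given as descriptions, with the test of a fit without the filter. Genes were called at a Benjamini-Hochberg adjusted p under 0.1 in an edgeR quasi-likelihood test. Of the 6 tested members, 1 was called higher and 2 lower with shBMAL1 in 786O, where 24.5% of all tested genes were called higher and 24.4% lower. In WT8, 0 were called higher and 4 lower with shBMAL1, against 32.9% and 36.9% of all tested genes. Between the lines with shControl, 3 were called higher and 1 lower in WT8, against 39.3% and 40.2%. HLA-DPB1 is among those called lower in 786O and between the lines, and HLA-DPA1 among those called lower in WT8. The counts include these calls, which are descriptions and not tests. With shBMAL1 in both lines, 2 were called higher and 0 lower in WT8, against 36.0% and 37.0%. Since a large part of the transcriptome was called in each comparison, being called sets none of the members apart from other genes.

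**Figure D2:**
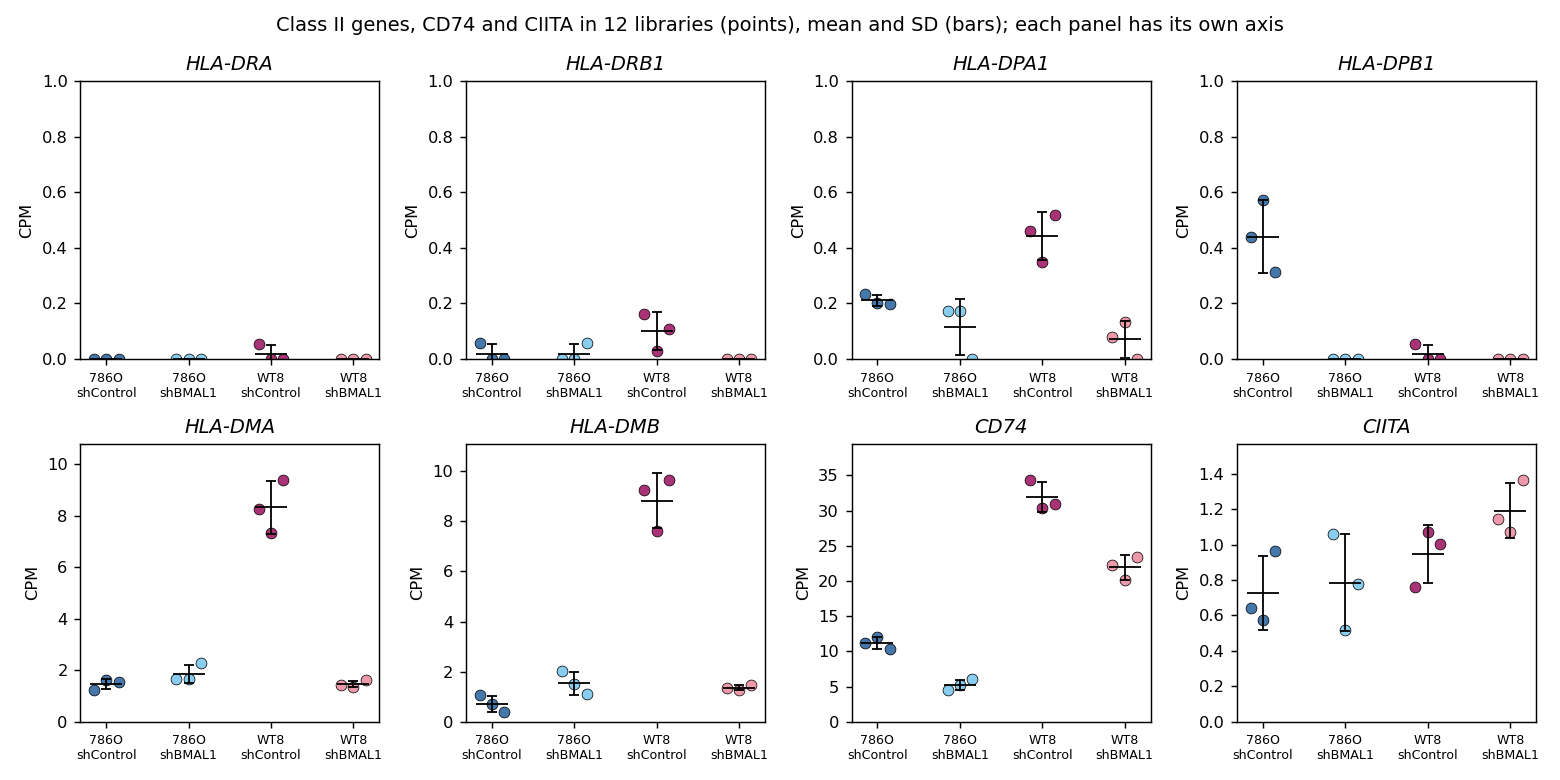
CPM (y axis, linear, a separate scale per panel) of the 8 genes in the 12 libraries (points) with the mean and SD of the 3 libraries of each group (bars). HLA-DMA and HLA-DMB stand high in WT8 shControl alone, at means of 8.32 and 8.83 CPM, CD74 differs among the 4 groups, and CIITA lies between 0.518 and 1.37 CPM throughout.

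HLA-DRA, the alpha chain of HLA-DR (GRCh37 chromosome 6, 32407655 to 32412823, plus strand), had 0 counts in 11 of 12 libraries and 2 counts in WT8 shControl replicate 1. HLA-DRB1, its main beta chain (chromosome 6, 32545679 to 32557625, minus strand), had 2, 0 and 0 counts in 786O shControl, 6, 1 and 4 in WT8 shControl, 0, 0 and 2 in 786O shBMAL1 and 0 in all libraries of WT8 shBMAL1. The highest values were thus in WT8 shControl, where 2 of 3 libraries exceeded the floor. HLA-DRB1 is highly polymorphic and has near-identical copies, and how reads of such genes were assigned is not stated, so its counts are uncertain.

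HLA-DPA1, the alpha chain of HLA-DP (chromosome 6, 33032346 to 33048552, minus strand), had 8, 7 and 7 counts in 786O shControl, 17, 12 and 19 in WT8 shControl, 6, 6 and 0 in 786O shBMAL1 and 3, 5 and 0 in WT8 shBMAL1. The WT8 shControl libraries were the highest and the WT8 shBMAL1 libraries overlapped with 786O shBMAL1. The fitted log2 change of HLA-DPA1 with shBMAL1 in WT8 was -2.58 (SE 0.70), and without the filter on low counts it was -2.57 (SE 0.74, edgeR adjusted p = 0.00157). It rests on few counts, and was -3.35 without WT8 shBMAL1 replicate 2 and -2.01 without replicate 3. In 786O the log2 change was -0.85 (SE 0.73, edgeR adjusted p = 0.369), and the changes in the 2 lines were not shown to differ (interaction, log2 difference -1.73, SE 1.05, edgeR adjusted p = 0.178). Both values are from the fit with the filter, and the interaction is a description because it uses WT8 shControl.

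HLA-DPB1, the beta chain of HLA-DP (chromosome 6, 33043767 to 33057473, plus strand), had another pattern. It had 15, 20 and 11 counts in 786O shControl, 2, 0 and 0 in WT8 shControl and 0 in all libraries of both shBMAL1 groups. Only the 786O shControl libraries exceeded the floor. Against a floor of 3 counts per library, HLA-DPB1 was at least 5.11-fold lower in 786O shBMAL1 than in 786O shControl and at least 5.29-fold lower in WT8 shControl than in 786O shControl. Without the filter on low counts, the edgeR adjusted p-values of these differences were 2.04e-05 and 2.30e-04. No fold was taken within WT8, where both groups were at the floor. HLA-DPA1 and HLA-DPB1 overlap on opposite strands, and HLA-DPB1 also overlaps the pseudogene RPL32P1 on its own strand. The libraries were made with a stranded kit, but whether strand was used in counting is not given in the sources used here, so reads of overlapping genes cannot be told apart.

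The remaining class II chain genes gave no other chain at a high level. Of 11 such genes, 7 were in the table, and HLA-DOA, HLA-DQA1, HLA-DQA2, HLA-DQB2 and HLA-DRB5 had 0 counts in all 12 libraries. HLA-DQB1 had at most 3 counts in a library. HLA-DOB, the beta chain of HLA-DO, which holds HLA-DM in check, was the only one tested. It had 0, 14 and 8 counts in 786O shControl, 20, 21 and 30 in WT8 shControl, 11, 3 and 13 in 786O shBMAL1 and 10, 0 and 5 in WT8 shBMAL1. It was highest in WT8 shControl and fell with shBMAL1 in WT8 by 2.27 on the log2 scale (SE 0.70, edgeR adjusted p = 0.00629).

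CD74 (chromosome 5, 149781200 to 149792532, minus strand) was the most abundant of the 8 genes in every library. Its level was 11.2, 11.98 and 10.4 CPM in 786O shControl and 4.54, 5.24 and 6.00 CPM in 786O shBMAL1. In WT8 it was 34.4, 30.4 and 30.9 CPM with shControl and 22.2, 20.1 and 23.5 CPM with shBMAL1. No pair of the 4 groups overlapped, and the order from low to high was 786O shBMAL1, 786O shControl, WT8 shBMAL1 and WT8 shControl. CD74 fell with shBMAL1 2.13-fold in 786O (log2 change -1.09, SE 0.11, edgeR adjusted p = 1.04e-10) and 1.46-fold in WT8 (log2 change -0.54, SE 0.09, edgeR adjusted p = 9.66e-07). It was 2.85-fold higher in WT8 than in 786O with shControl (edgeR adjusted p = 3.59e-17) and 4.17-fold higher with shBMAL1 (edgeR adjusted p = 1.11e-19). The fall was smaller in WT8, by 0.55 on the log2 scale (interaction, SE 0.14, edgeR adjusted p = 9.28e-04). Both the fall in WT8 and this difference were not called when a change beyond 1.5-fold was required (edgeR adjusted p = 0.955 and 0.884).

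HLA-DMA and HLA-DMB, the alpha and beta chain of HLA-DM, were high in 1 of the 4 groups. HLA-DMA (chromosome 6, 32916390 to 32936871, minus strand) had 1.23, 1.63 and 1.54 CPM in 786O shControl, 8.26, 7.31 and 9.38 CPM in WT8 shControl, 1.67, 1.64 and 2.27 CPM in 786O shBMAL1, and 1.41, 1.36 and 1.61 CPM in WT8 shBMAL1. The WT8 shControl libraries lay above all 9 others, which lay between 1.23 and 2.27 CPM. HLA-DMA was 5.67-fold higher in WT8 than in 786O with shControl (log2 change 2.50, SE 0.18, edgeR adjusted p = 4.16e-15). It fell with shBMAL1 in WT8 5.69-fold (log2 change -2.51, SE 0.18, edgeR adjusted p = 5.72e-15), and WT8 shBMAL1 and 786O shBMAL1 did not differ at the threshold (log2 change -0.35, 95% interval -0.74 to 0.04, edgeR adjusted p = 0.121). In 786O the log2 change with shBMAL1 was 0.34 (SE 0.20, edgeR adjusted p = 0.178).

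HLA-DMB (chromosome 6, 32902406 to 32908805, minus strand) had 1.05, 0.715 and 0.398 CPM in 786O shControl and 2.01, 1.53 and 1.09 CPM in 786O shBMAL1. In WT8 it had 9.24, 7.60 and 9.65 CPM with shControl and 1.33, 1.28 and 1.47 CPM with shBMAL1. The 786O shControl libraries were the lowest, those of WT8 shControl the highest, and the 2 shBMAL1 groups overlapped. HLA-DMB was 12.2-fold higher in WT8 than in 786O with shControl (log2 change 3.61, SE 0.23, edgeR adjusted p = 1.38e-16). It rose with shBMAL1 in 786O 2.14-fold (log2 change 1.10, SE 0.27, edgeR adjusted p = 9.79e-04) and fell in WT8 6.48-fold (log2 change -2.70, SE 0.20, edgeR adjusted p = 4.71e-14). The rise in 786O was not called when a change beyond 1.5-fold was required (edgeR adjusted p = 0.133).

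The change with shBMAL1 differed between the lines for both HLA-DM genes (interaction, log2 difference -2.85, SE 0.27, edgeR adjusted p = 2.96e-11 for HLA-DMA and -3.79, SE 0.33, edgeR adjusted p = 5.76e-12 for HLA-DMB). With CD74, which carried the opposite sign in this test, 1 of the 6 tested members had a called interaction above 0 and 2 had one below 0, against 27.4% and 28.5% of all tested genes. Counts of HLA-DMA per count of HLA-DMB in WT8 were 0.894 to 0.972 with shControl and 1.06 to 1.09 with shBMAL1, so the pair kept a near-even ratio as it fell. The ratio was 1.17 to 3.86 in 786O shControl and 0.829 to 2.08 in 786O shBMAL1, at 14 to 79 counts per gene. Per length of the MANE transcript, CD74 had 19.3 ± 1.29, HLA-DMA 7.61 ± 0.948 and HLA-DMB 6.55 ± 0.806 CPM per kilobase in WT8 shControl (SD, n = 3). In WT8 shBMAL1 the levels per kilobase were 13.3 ± 1.04, 1.34 ± 0.118 and 1.01 ± 0.0732. HLA-DMA overlaps BRD2, a far more abundant gene on the opposite strand, which fell with shBMAL1 in WT8 by 0.43 on the log2 scale and was 0.51 higher in WT8 than in 786O with shControl. Both HLA-DM genes also overlap a further annotated gene on their own strand. The part of BRD2 reads in the HLA-DMA counts was not tested.

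**Figure D3:**
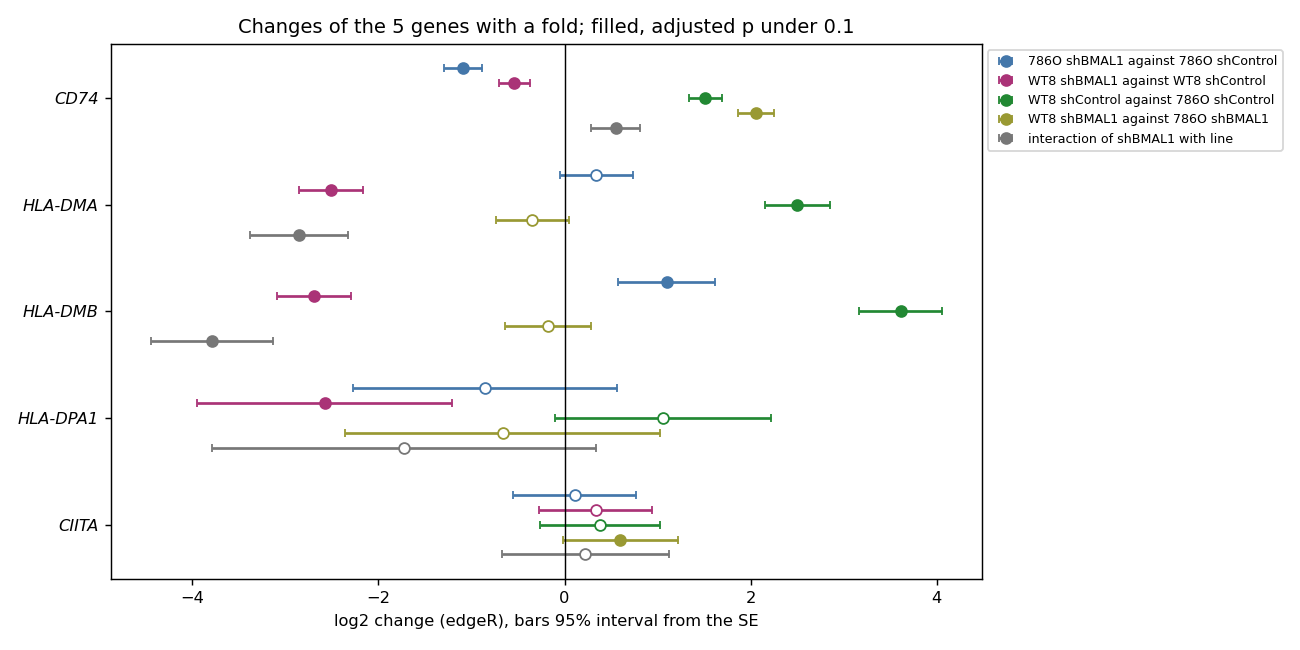
Log2 changes (x axis, edgeR, bars 95% intervals from the SE) of the 5 members with a fold in the 4 comparisons of groups and the interaction (colours), with filled points at an adjusted p under 0.1. HLA-DMA and HLA-DMB lie at -2.51 and -2.70 for shBMAL1 in WT8 but at 0.34 and 1.10 in 786O, and the CIITA bars all cross 0.

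Since HLA-DMA and HLA-DMB moved together, their promoters are shown with those of HLA-DRB1, a gene of the same family near the floor here, and of CD74. The windows run from 250 bases before to 50 bases after the transcription start (RefSeq, GRCh38.p14), are written 5′ to 3′ on the strand of the gene, and were found for 6 of the 8 members. Capitals mark the part ACNGATG of the X box and the Y box letters ATTGG, on either strand, where the reverse of the latter reads CCAAT. These letters were picked with the sequences in view.
HLA-DMA (chr6:32953048-32953347, minus strand): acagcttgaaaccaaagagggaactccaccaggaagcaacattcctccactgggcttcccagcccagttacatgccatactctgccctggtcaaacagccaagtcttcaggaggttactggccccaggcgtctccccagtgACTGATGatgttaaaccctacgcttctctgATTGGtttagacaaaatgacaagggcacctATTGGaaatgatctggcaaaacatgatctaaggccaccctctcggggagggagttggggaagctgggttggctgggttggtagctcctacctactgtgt
HLA-DMB (chr6:32940979-32941278, minus strand): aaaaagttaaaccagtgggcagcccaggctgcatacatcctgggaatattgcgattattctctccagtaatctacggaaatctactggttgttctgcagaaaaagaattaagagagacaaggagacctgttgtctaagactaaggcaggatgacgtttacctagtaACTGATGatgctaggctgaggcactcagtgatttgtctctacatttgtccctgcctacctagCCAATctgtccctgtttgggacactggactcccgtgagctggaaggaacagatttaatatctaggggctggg
HLA-DRB1 (chr6:32589799-32590098, minus strand): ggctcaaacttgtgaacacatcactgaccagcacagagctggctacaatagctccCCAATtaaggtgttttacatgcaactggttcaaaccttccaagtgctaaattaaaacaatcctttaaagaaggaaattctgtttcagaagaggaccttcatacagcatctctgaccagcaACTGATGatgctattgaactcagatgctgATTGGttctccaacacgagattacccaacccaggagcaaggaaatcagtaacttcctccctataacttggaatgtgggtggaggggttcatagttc
CD74 (chr5:150412861-150413160, minus strand): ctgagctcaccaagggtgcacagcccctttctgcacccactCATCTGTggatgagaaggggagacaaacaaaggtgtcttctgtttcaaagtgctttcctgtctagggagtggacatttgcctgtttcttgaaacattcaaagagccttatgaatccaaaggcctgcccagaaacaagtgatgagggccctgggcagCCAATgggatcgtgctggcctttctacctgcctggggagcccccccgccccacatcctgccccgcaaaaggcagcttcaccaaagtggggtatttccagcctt

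The X box part was in 4 of the 7 member windows and in 7.65% of all 35116 windows, and the Y box letters were in 5 member windows and in 34.6% of all. Both were in the windows of HLA-DMA, HLA-DMB, HLA-DRB1 and CD74, and in 2.78% of all windows. Because the letters were picked with these windows in view, these shares are descriptions and no test. In HLA-DMA the X box part lay at -109 to -103 from the start and the next Y box began 30 bases downstream of its first base. In HLA-DRB1 it lay at -75 to -69, with the next Y box 29 bases downstream, and in HLA-DMB at -84 to -78, with 62 bases between the first bases. In CD74 the only match to the X box part was on the other strand, 156 bases from the next Y box letters. The longest run of letters shared by the windows of HLA-DMA, HLA-DMB and HLA-DRB1 was ACTGATGATG, 10 bases that start with the X box part and occur in 30 of all windows (0.0854%). This run was taken from these windows, so its presence in them was fixed and its share of all windows is no test. The HLA-DRB1 promoter, which had at most 6 counts of its gene in a library, and the HLA-DM promoters hold the same letters. Of the E-box CACGTG, to which BMAL1 dimers bind, 0 of 7 member windows held a copy, against 7.26% of all windows. The study gives the HIF site with G or A before CGTG, and only the form ACGTG, which the E-box contains, was searched. It was in 1 member window, a window of HLA-DPA1, and in 21.4% of all. The form GCGTG was not counted, so these are not shares of all HIF sites. A match is a description of the letters and not of binding. Only exact letters were searched, so a box with other letters would be missed and these distances need not be those of working boxes.

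**Figure D4:**
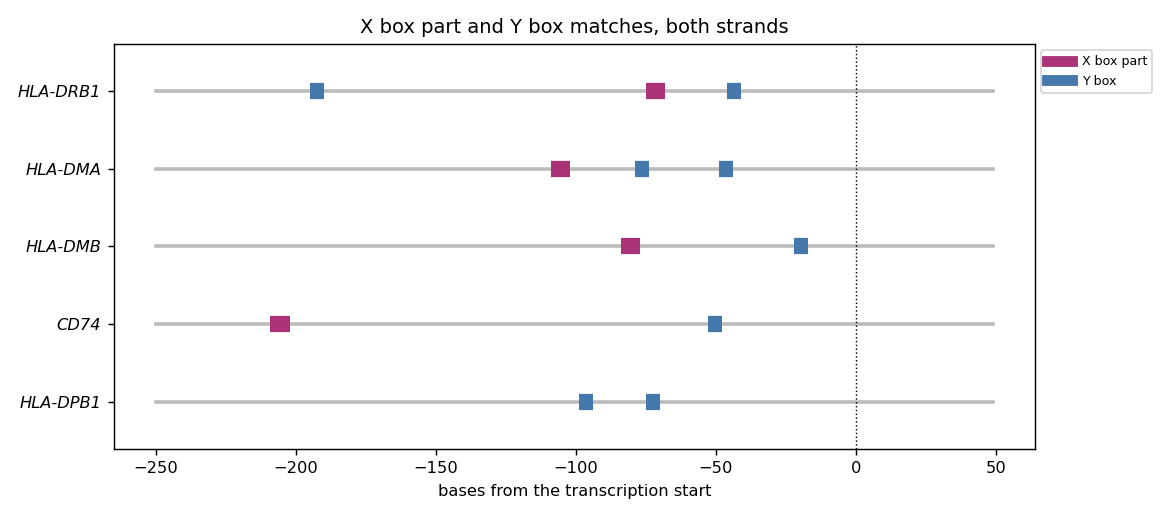
Position of the X box part and of the Y box letters (colours, either strand) along the promoter windows of 5 members, in bases from the transcription start (x axis, dotted line at the start). HLA-DRB1 and HLA-DMA have the Y box letters 29 and 30 bases downstream of the X box part, and HLA-DMB and CD74 have them 62 and 156 bases downstream. Only exact matches are drawn.

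CIITA (chromosome 16, 10960079 to 11036878, plus strand) was detected at low level in all 12 libraries. It had 22, 20 and 34 counts in 786O shControl, 37, 18 and 27 in 786O shBMAL1, then 28, 37 and 37 in WT8 shControl and finally 43, 40 and 51 in WT8 with shBMAL1. The group means were 0.727 ± 0.211, 0.785 ± 0.272, 0.947 ± 0.164 and 1.19 ± 0.154 CPM in this order, in which neighbours overlapped. With shBMAL1 the log2 change was 0.11 in 786O (95% interval -0.55 to 0.77, edgeR adjusted p = 0.826) and 0.33 in WT8 (95% interval -0.27 to 0.94, edgeR adjusted p = 0.353). Between the lines with shControl it was 0.38 (95% interval -0.27 to 1.02, edgeR adjusted p = 0.298). None of these was called, and the intervals leave room for changes of over 1.5-fold. With shBMAL1 in both lines CIITA was called 1.52-fold higher in WT8 (log2 change 0.60, SE 0.32, edgeR adjusted p = 0.0924), a call that 9 of 21 alternative settings lost. CIITA overlaps DEXI on the opposite strand, which fell with shBMAL1 in WT8 by 0.51 on the log2 scale.

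Factors that recruit CIITA to the X and Y boxes were examined next. The counts of the gene groups below read against all tested genes, of which 24.5% rose and 24.4% fell with shBMAL1 in 786O and 32.9% rose and 36.9% fell in WT8. Of 8 genes for RFX, CREB and NF-Y factors, 2 rose and 2 fell with shBMAL1 in 786O, and 3 rose and 3 fell in WT8, which is near those shares. RFX5, a subunit of the RFX complex, had 53.8 ± 3.85 CPM in 786O shControl, 71.2 ± 2.65 in WT8 shControl, 27.8 ± 0.908 in 786O shBMAL1 and 44.9 ± 4.20 in WT8 shBMAL1 (SD, n = 3). It fell with shBMAL1 in both lines (log2 change -0.95, edgeR adjusted p = 3.61e-14 in 786O, and -0.67, edgeR adjusted p = 2.38e-11 in WT8). NFYB, a subunit of NF-Y, fell in 786O by 0.21 and rose in WT8 by 0.68 on the log2 scale, and ATF1, a CREB family factor, rose in both (0.38 and 0.43). Of 12 CIITA cofactors and chromatin regulators, 0 rose and 3 fell in 786O, where the 3 that fell are near the share over all genes, and 7 rose and 2 fell in WT8. CDK9, the kinase of the elongation factor P-TEFb, fell in both lines (log2 change -0.96 and -1.43), and EZH2, the methyltransferase of H3K27, rose in WT8 by 1.82.

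Of 13 genes on the path from interferon-gamma to CIITA, 12 were tested, of which 6 rose and 3 fell with shBMAL1 in 786O and 3 rose and 5 fell in WT8. The cytokine gene itself, IFNG, had 0 counts in all 12 libraries. SOCS1, a feedback inhibitor of the pathway, rose in 786O by 1.02 and fell in WT8 by 0.72 on the log2 scale. IRF8, an interferon regulatory factor of myeloid and B cells, had 0.211 ± 0.118 CPM in 786O shControl, 23.0 ± 2.92 in WT8 shControl, 0.268 ± 0.0876 in 786O shBMAL1 and 4.81 ± 0.244 in WT8 shBMAL1. It was thus highest in WT8 shControl, as the HLA-DM genes were, and fell with shBMAL1 in WT8 by 2.26 on the log2 scale (SE 0.13, edgeR adjusted p = 7.48e-18).

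Among 13 endosomal proteases and other genes of class II peptide loading, 4 rose and 4 fell with shBMAL1 in 786O, and 3 rose and 8 fell in WT8, where the median log2 change was -0.41 against -0.04 over all tested genes. CTSS, the protease best known for the last cut of the invariant chain, had 22.1 ± 2.91 CPM in 786O shControl and 7.33 ± 0.489 in 786O shBMAL1. It was near the floor in WT8, at 0.303 ± 0.091 and 0.0714 ± 0.0818 CPM, and fell with shBMAL1 in both lines (log2 change -1.59, edgeR adjusted p = 8.11e-13, and -2.05, edgeR adjusted p = 0.00146). CTSS and the HLA-DM genes thus stood on opposite sides of the comparison of the lines. LGMN, an asparagine endopeptidase, fell in both lines (log2 change -0.49 and -1.18). Of 7 genes of class II ubiquitination and surface turnover, 4 rose and 2 fell in 786O, and 2 rose and 2 fell in WT8. This group includes membrane protein genes of the tetraspanin family besides the ubiquitin ligases, so the counts are not of ligases alone. MARCH8, a ligase that ubiquitinates class II molecules, rose by 0.52 and 0.91 on the log2 scale.

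Of 10 genes for ligands of T cell costimulation, coinhibition and adhesion, 8 were tested. Of these, 3 rose and 3 fell in 786O and 5 rose and 2 fell in WT8. The group mixes ligands that activate T cells with ligands that restrain them, so these counts give no direction for costimulation. ICAM1, the ligand of the T cell integrin LFA-1, fell by 1.24 in WT8, and ICOSLG, the ligand of ICOS, rose there by 1.69 on the log2 scale. The class I pathway has its own coactivator, NLRC5, a paralogue of CIITA. Of 7 genes that comprise NLRC5 and core class I genes, 0 rose and 6 fell in 786O, and 1 rose and 6 fell in WT8, against 24.4% and 36.9% of all tested genes that fell. The median log2 changes of the group were -0.27 and -0.72, and those over all tested genes were 0.000697 and -0.04. HLA-B fell by 0.49 and 1.34 on the log2 scale, although reads of the near-identical class I genes may be split between them. The peptide transporter gene TAP1 fell by 0.68 in 786O, and TAP2 was the gene that rose in WT8, by 0.64.

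**Figure D5:**
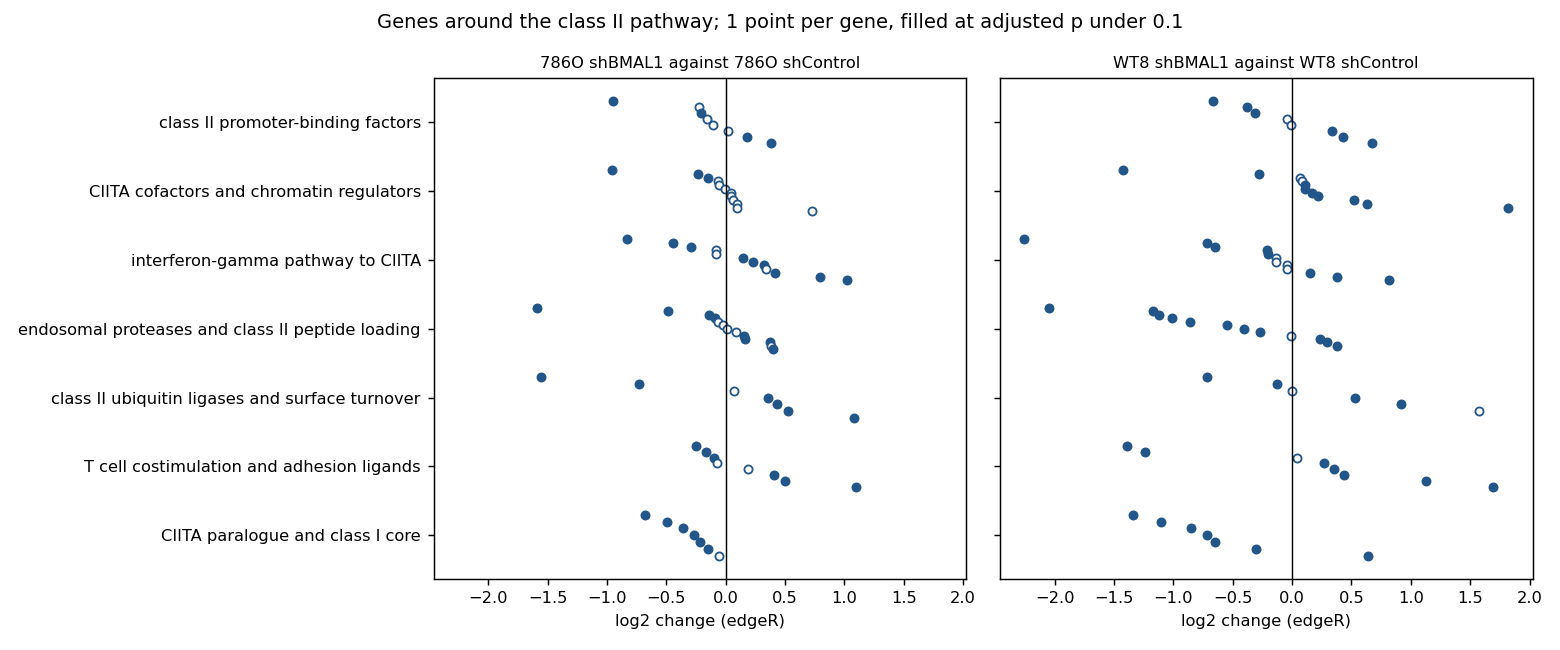
Log2 changes with shBMAL1 (x axis, edgeR) in 786O (left) and WT8 (right) for 7 groups of genes around the class II pathway (y axis), 1 point per gene, filled at an adjusted p under 0.1 and left out where both groups were at the floor. The class I group has 6 genes that fell in each panel, and the peptide loading group has 8 that fell in WT8 against 4 in 786O.

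Class II genes mark leukocytes, so leukocyte markers were set beside them. Of 16 markers, 5 were tested, 9 to 10 had at most 3 counts in every library of a group, and CD3E, MS4A1 and TYROBP had 0 counts in all 12 libraries. PTPRC, which encodes the common leukocyte antigen CD45, had 1 count over all libraries. The summed level of the markers was 46.1 to 47.9 CPM in 786O shControl, 42.9 to 49.6 in WT8 shControl, 38.7 to 43.8 in 786O shBMAL1 and 21.9 to 25.7 in WT8 shBMAL1, most of it CD68, a lysosomal protein gene. With shBMAL1, 2 of the 5 rose and 2 fell in 786O, and 0 rose and 4 fell in WT8. ITGAX, the integrin chain CD11c of myeloid cells, had 1.09 ± 0.547 CPM in 786O shControl, 16.2 ± 0.522 in WT8 shControl, 0.594 ± 0.10 in 786O shBMAL1 and 3.36 ± 0.548 in WT8 shBMAL1. ITGAX thus was highest in the group in which HLA-DMA and HLA-DMB were highest, and fell with shBMAL1 in WT8 by 2.27 on the log2 scale (SE 0.16, edgeR adjusted p = 1.09e-13). CSF1R, the receptor of a macrophage growth factor, fell by 3.02 on the log2 scale in WT8, from 0.889 to 0.107 CPM, while its highest level, 6.39 CPM, was in 786O shBMAL1. The part of these markers in the class II results was not tested. In bulk RNA, fewer cells that express a gene and less RNA of it per cell cannot be told apart.

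The genes whose 4 group means were most like those of CD74, after centring on the log2 scale, were PIK3AP1, SEMA6B, NRG2, TNFSF13 and GLDC, with root mean square differences of 0.0963 to 0.158 among 12948 genes with a mean of at least 50 counts. PIK3AP1 had 2.12, 0.824, 5.36 and 3.60 CPM, and SEMA6B had 9.75, 5.59, 35.2 and 21.5 CPM, in the order 786O shControl, 786O shBMAL1, WT8 shControl and WT8 shBMAL1. For CIITA they were TULP4, ABHD6, SNX27, TAF6L and DCUN1D1, with differences of 0.00823 to 0.0303. These are smaller than the SE of the log2 changes of CIITA between groups, 0.31 to 0.34, so the ranking for CIITA is within its own spread. Each likeness rests on 4 group means.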

How the data were processed

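RNA-seq libraries of 12 cultures in 4 groups of 3 were analysed. Per the labels, libraries were stranded mRNA libraries made by BGI. The study's methods name GRCh37, SeqMan NGen and ArrayStar, while the submitters' processing notes name hg38, STAR and DESeq2. Which of these made the table, the annotation, the use of strand and the treatment of reads with several alignments are not given in the sources used here. The authors deposited estimated counts for each gene, not normalised. Of the values, 47.0% were a stand-in of 0.028 for 0, and 5.67% of the others were not whole numbers, so plain counts, which the tests had assumed, did not apply. The stand-in was set to 0, values were rounded, and lines of the same name (45 names) were summed.

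A mean per group was fitted over 12 libraries with edgeR 4.0.16 in R 4.3.3 (TMM, filterByExpr, robust quasi-likelihood F test), which tested 16838 of 26925 genes with a count. Benjamini-Hochberg adjustment ran over all tested genes, and genes were called under 0.1, the false discovery rate of the study. The interaction subtracts the shBMAL1 change of 786O from that of WT8, on the log2 scale. SE was taken as the log2 change over the root of F, and 95% intervals from the SE and the normal distribution. The fit was tested on simulated data. The common biological coefficient of variation was 5.70%, and chi-square per gene between replicates was 4.51 to 12.6, so no pair was a repeated deposit of 1 library. Whether replicates came from separate infections is not stated, and p-values measure only the spread between these libraries. Floors cover counting error only. Counts of 2 (14904) outnumbered counts of 1 (11312), so mates of a pair may have been counted separately and 3 counts may be fewer fragments.

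The members and lists were chosen with earlier results of these data known. The genes named are the 8 members, BMAL1 and VHL, up to 2 called genes each way from each list and shBMAL1 comparison, and the 5 genes most like a member. One listed gene enters the count of its list, but its values are not reported here. BRD2, DEXI, PAX8 and genes at 0 were named after their values were seen. Gene positions are from GENCODE version 44 on GRCh37. Alternatives were DESeq2 1.42.0, other scalings and filters, the replicate number as a block, only the groups compared, counts divided by 2, the largest line of a name, a 1.5-fold threshold (glmTreat) and leaving out each library.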

Additional observations from a re-analysis of the deposited data

Results flagged for a closer look

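The difference between the lines in the shBMAL1 change (WT8 minus 786O) passed the interaction test of edgeR for 3 of the 8 genes, of which 6 were tested. Of the 3, 1 lay above 0 and 2 below, against 27.4% and 28.5% of all tested genes called that way. Being called thus does not set these genes apart. The log2 difference was -2.85 for HLA-DMA, with counts of 252 to 345 falling to 51 to 60 in WT8 and of 42 to 57 against 57 to 79 in 786O. It was -3.79 for HLA-DMB, which was lower with shBMAL1 in all 3 WT8 libraries and higher in all 3 of 786O. It was 0.55 for CD74, which fell in both lines and less in WT8. No group of 4 or more libraries was available to look for single libraries far from the others.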

How the results depend on the processing

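The falls of CD74 in 786O and of HLA-DMA and HLA-DMB in WT8 with shBMAL1, and the interactions of both HLA-DM genes, kept their direction and their call in every alternative that could be computed for them. Requiring more than a 1.5-fold change lowered the number of all genes called to 990 from 8237 in 786O and to 4313 from 11753 in WT8 for shBMAL1, to 6993 from 13378 between the lines with shControl, to 5023 from 12295 with shBMAL1, and to 3134 from 9427 for the interaction, by its construction. The members called between the lines with shBMAL1 fell from 2 to 1 with DESeq2, without the filter, with at least 50 counts in 3 libraries, under the replicate block and with the 1.5-fold threshold, since CIITA was then not called or not tested. Leaving out 1 library gave 1 to 3 members. Replicate numbers did not pair the libraries (r of deviations -0.0456 to 0.0481 over 18 same-numbered pairs). The replicate block left CIITA at a log2 change of 0.60 with an adjusted p of 0.106 and changed no other call of a member.

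Leaving out a library turned the sign of uncalled values only. CIITA with shBMAL1 in 786O ran from -0.17 to 0.37, being -0.04 without 786O shControl replicate 2 and -0.17 without 786O shBMAL1 replicate 1. The CIITA interaction ran from -0.0321, without 786O shControl replicate 3, to 0.51, and HLA-DMB between the lines with shBMAL1 from -0.37 to 0.0582, without 786O shBMAL1 replicate 1. HLA-DPA1 between the lines with shControl, not called in the report, was called in 4 alternatives (adjusted p 0.0396 to 0.0964). HLA-DMA between the lines with shBMAL1 was called without 786O shBMAL1 replicate 1 or 2 (0.0944 and 0.0889), and the HLA-DPA1 interaction without 786O shBMAL1 replicate 3 (0.0626). The cause was not tested. Summing the HLA-DRB genes gave no value beyond HLA-DRB1, which stayed under the filter. Depth limits the chain genes: the fitted HLA-DPB1 value between the lines with shControl, which is no bound, ran from -6.99, without WT8 shControl replicate 1, to -3.82.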
